A study of Mus musculus with 98 samples.

Results

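The ends described here are those that a zinc finger nuclease (ZFN) left close to its own cut, in mouse pre-B cells held in G1, which the Abelson kinase had transformed. Each end was read as a structure, that is, a pair of positions: where the strand with the 5' end stopped and where the strand with the 3' end stopped. The structures were chosen by position and depth from the 2 ZFN tables of the study: at least 2 reads, and both strands stopping within 20 nt of position 33, which was taken as the cut. That rule kept 223 of 1631 structures in the cells that lack both ligase IV and 53BP1 (LigaseIV -/- 53BP1 -/-, Line C, title tag ZF 12) and 266 of 1187 in the cells that lack ligase IV alone (Ligase IV -/-, Line B, title tag ZF 11). Together they made 296 distinct structures, of which 193 were listed in both tables, 30 only in line C and 73 only in line B. Over the whole of both tables, 679 of 2139 distinct structures were listed in both, a smaller part than near the cut. The 17 tables used from the series listed 12741 structures in all.

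The study captured chromosomal broken ends by sealing the strands of each end into a hairpin with a single-stranded DNA ligase, treating the DNA with bisulfite, and sequencing the PCR product as read pairs. Breaks came from the RAG recombinase, from Cas9 with the Eb guide RNA or from the ZFN, and every line used below lacked ligase IV. Each ZFN table pools the reads of 3 libraries and does not separate them, so each genotype is 1 line and 1 pool, with no spread between replicates. The labels put line C in sequencing run 7 and line B in run 8, so that genotype, cell line, run and ZF number cannot be told apart. The genomic target of the ZFN and its sequence were not analysed here, so no sequence or coordinate is printed. In the plots the genotypes are written Lig4-/- 53BP1-/- and Lig4-/-.

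Ligase IV seals double-strand breaks in non-homologous end joining, and without it broken ends persist. 53BP1 is a chromatin-binding DNA damage response protein known for limiting the nucleolytic resection of broken ends. A ZFN joins sequence-specific zinc fingers to the FokI nuclease domain, and a pair of FokI domains cuts the strands at staggered places, leaving a 4-nt 5' overhang. A polymerase can shorten such an overhang by extending the recessed 3' strand, and nucleases can shorten or lengthen it by trimming either strand.

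Positions are given in nt inside the cut, so that 0 is position 33 and negative values lie outside it. An end as FokI is known to leave it has its 5' end at 0 and its 3' end at +4. The cut was placed there because this was the most abundant 4-nt 5' overhang in the line B table, which makes its share in line B a description and not a finding. Overhangs were read as 3' when positive, because the main structure of the KpnI control, with 99.2% of its reads, has the value 4 and KpnI is known to leave a 3' overhang of that length.

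Near-cut ends held 18.5% of 556034 reads in line C (95% interval 18.4 to 18.6) and 81.4% of 623350 reads in line B (81.3 to 81.5). In reads, that is 102839 near-cut reads in line C and 507621 in line B. All intervals given are exact Clopper-Pearson 95% intervals and cover counting error only, because PCR copies of 1 molecule were not marked as such. The share is set by the window that chose the ends and is given without a test. At the border of the window the values were small. Structures with a strand at its last position held 0.430% of line C reads and 0.897% of line B reads, and those 1 nt further out held 0.160% in line C and 0.487% in line B.

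Near-cut reads were spread over many structures in both tables. The most abundant one held 6.23% of near-cut reads in line C and 6.95% in line B, and the 10 most abundant held 40.4% in line C and 47.1% in line B. It took 15 structures to reach 50% of the near-cut reads in line C, against 12 in line B. No single structure therefore carried the near-cut ends of either table.

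**Figure D1:**
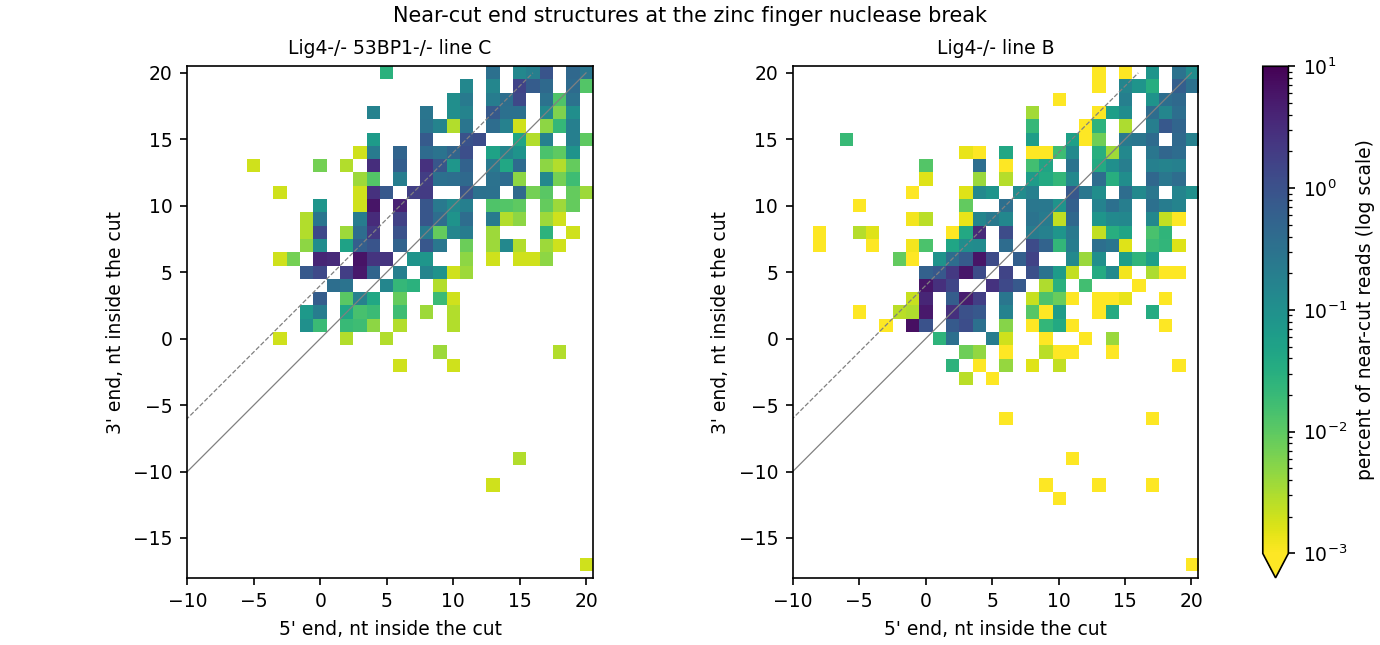
Each square is an end structure, placed by where its 5' end (horizontal axis) and its 3' end (vertical axis) stopped, in nt inside the cut, for LigaseIV -/- 53BP1 -/- line C (left) and Ligase IV -/- line B (right). Colour gives its percent of near-cut reads on a log scale, white squares are not listed, the solid diagonal marks blunt ends and the dashed one 4-nt 5' overhangs. Dark squares lie above the solid diagonal in line C and above, on and below it in line B.

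The ends near the cut were mostly 5' overhangs in both tables, and more so in line C, which lacks 53BP1. Overhangs of the 5' strand held 89.8% of near-cut reads in line C (89.6 to 89.9) and 56.5% in line B (56.4 to 56.7), a difference of 33.2 percentage points. Overhangs of the 3' strand held 7.19% in line C and 32.8% in line B, a difference of -25.6 points. Blunt ends held 3.05% in line C and 10.6% in line B, a difference of -7.58 points. Ends with an overhang of 5 nt or more on either strand held 36.4% in line C and 7.56% in line B. Of these long overhangs nearly all were 5' overhangs in line C, at 35.8% of near-cut reads, whereas for line B the 5' strand gave 1.70% and the 3' strand 5.86%.

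Each of these 4 differences passed Fisher's exact test on reads (two-sided, Benjamini-Hochberg adjusted over 7 comparisons), and each p was below the smallest number the computation can hold. That test compares 2 pools of reads and not the genotypes. For the genotypes themselves, 1 line against 1 leaves a permutation of the lines with a smallest p of 1. The spread between lines of a genotype could be had only at other breaks, from 6 pairs of lines measured at the same break (Ligase IV -/- at Cas9, Jk1 and the substrate, 53BP1-deficient at the substrate, H2AX-deficient at Jk1 and the substrate). The largest gap within a pair was 12.1 points for 5' overhangs, 16.5 for 3' overhangs and 15.2 for overhangs of 5 nt or more, each smaller than the ZFN difference. For blunt ends it was 14.5 points, between 53BP1-deficient lines B and C at the substrate, so the ZFN difference in blunt ends was within the spread between lines of a genotype. When each structure was counted once, 5' overhangs differed by 10.6 points, 3' overhangs by -11.5 points, blunt ends by 0.942 points and long overhangs by -5.55 points. Structures are not replicates, so these are descriptions of the lists. Without the 10 most abundant structures of each line, the difference by reads was 5.51 points for long overhangs and -0.655 points for blunt ends.

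Overhang length showed where the reads lay. In line C the most frequent value was a 3-nt 5' overhang, with 20.1% of near-cut reads, followed by 5' overhangs of 4 nt (15.7%), 6 nt (12.4%), 2 nt (12.2%) and 5 nt (11.8%). The leading value in line B was a 2-nt 5' overhang with 27.3%, followed by a 1-nt 3' overhang (12.5%), the 4-nt 5' overhang (11.4%), blunt ends (10.6%) and the 3-nt 5' overhang (10.5%). The 6-nt 5' overhang, at 12.4% in line C, held 0.0922% in line B. In line C, 5 such structures not listed in line B held 10.7% of near-cut reads, and the 6 listed in both tables held 1.74% in line C and 0.0922% in line B. The read-weighted median overhang was 4 nt on the 5' side in line C and 2 nt on the 5' side in line B, and the middle 50% of the reads ran from 5 to 2 nt on the 5' side in line C and from 2 nt on the 5' side to 1 nt on the 3' side in line B.

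**Figure D2:**
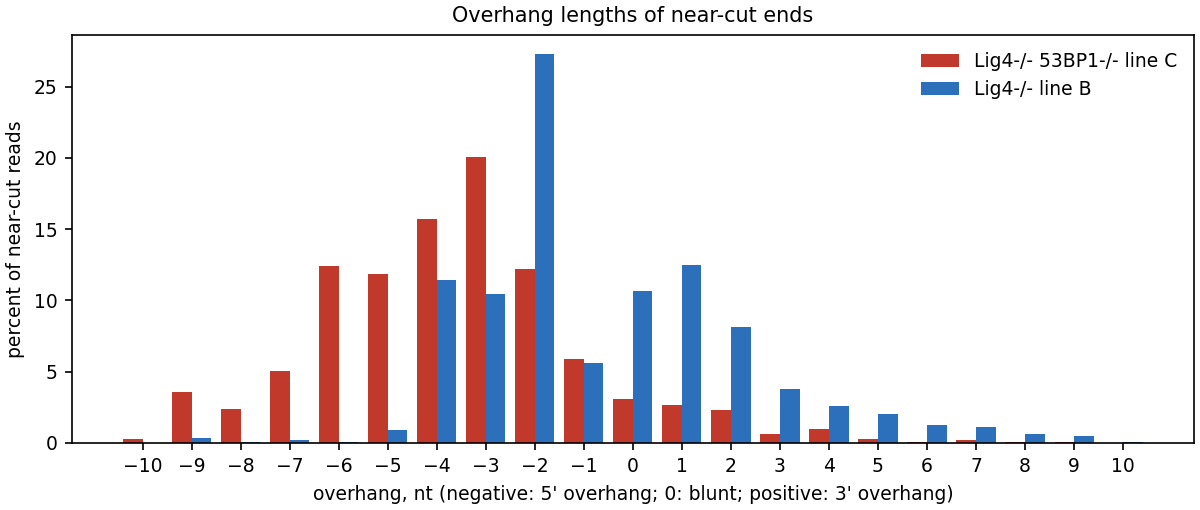
Bars give the percent of near-cut reads at each overhang length, in nt, from 10 nt on the 5' side (negative) through blunt (0) to 10 nt on the 3' side (positive), for LigaseIV -/- 53BP1 -/- line C (red) and Ligase IV -/- line B (blue). Line C lies to the left of line B, with 35.8% of its near-cut reads at 5' overhangs of 5 nt or more, against 1.70% in line B.

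The strands were then taken one at a time. The 5' ends shared several preferred positions between the tables, with differing shares. The preferred 5' ends in line C were +4, with 21.4% of near-cut reads, +3 (13.03%), +8 (11.3%), +6 (8.97%) and 0 (7.84%). In line B they were 0, with 16.4%, +4 (14.4%), +3 (13.5%), +2 (8.62%) and -1 (6.96%). Of the 5 leading positions of each table, 3 were shared. Over the 41 positions of the window the shares of the tables gave a Pearson correlation of 0.81 (Spearman 0.92), a description across positions that share a locus and an amplicon. Many positions outside the cut held no reads in either table, which raises the rank correlation. The median 5' end was +5 in line C and +4 in line B, and 5' ends 10 nt or more inside held 22.6% in line C and 18.7% in line B.

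The 3' ends differed more. They stopped at +4 or before it in 2.34% of near-cut reads in line C and in 47.0% in line B. In line C the share was 0.863% at +4 and 10.2% at +5, with 18.7% at +6, the most frequent 3' end there, and further high shares at +10 (11.6%), +11 (9.19%) and +13 (8.49%). In line B the positions from +1 to +6 each held 10.2 to 14.6%, with the maximum at +4, and together 71.0% of near-cut reads, against 31.3% in line C. The correlation of the tables over positions was 0.43 for 3' ends (Spearman 0.87, with the same limit). The median 3' end was +10 in line C and +5 in line B, and 3' ends 10 nt or more inside held 52.5% in line C and 17.6% in line B. The cut was placed with the line B table, so these shares on either side of +4 are given without a test.

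**Figure D3:**
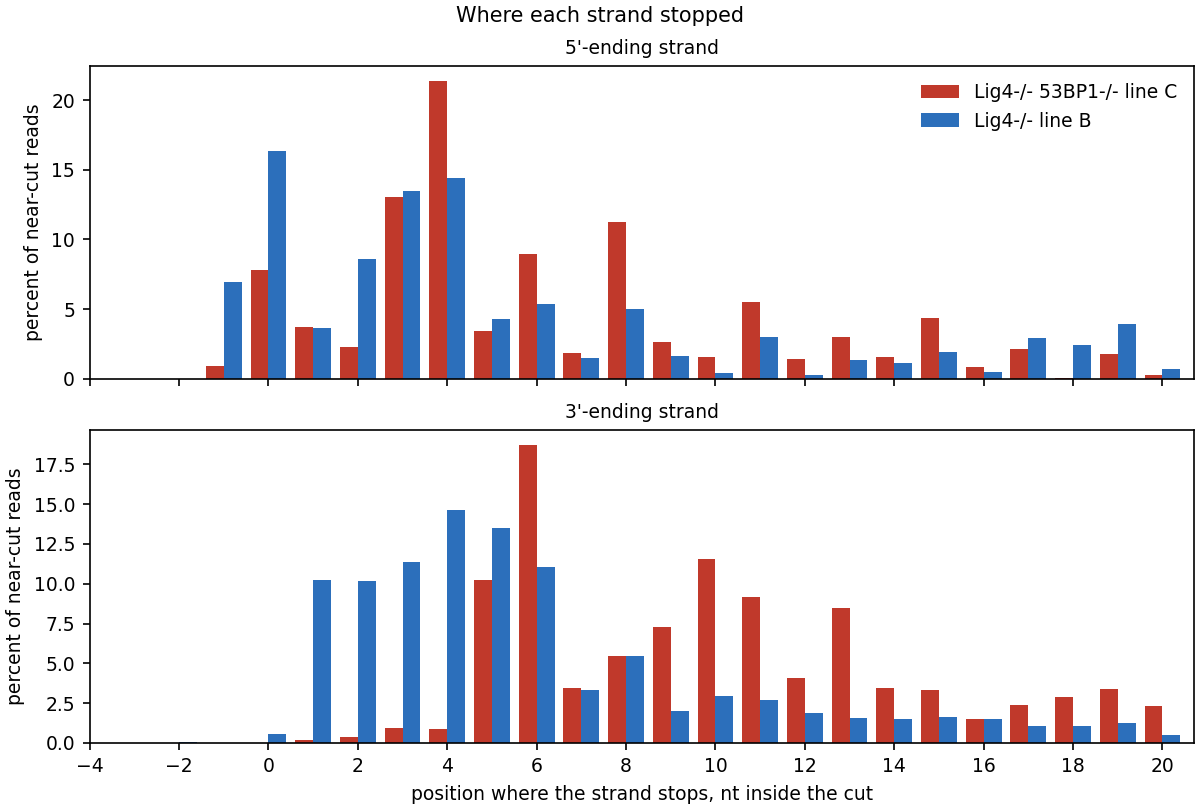
Bars give the percent of near-cut reads whose 5'-ending strand (top) or 3'-ending strand (bottom) stopped at each position, in nt inside the cut, for LigaseIV -/- 53BP1 -/- line C (red) and Ligase IV -/- line B (blue). The 5' ends share maxima at 0, +3 and +4, while 3' ends before +5 hold 2.34% of line C reads and 47.0% of line B reads.

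The pairing of the strands gave the same picture at each 5' end. At all 18 positions from 0 to +17 the read-weighted median 3' end lay further inside in line C than in line B, by 2 to 7 nt (median 4.5 nt). With 5' ends at 0 the median 3' end was +6 in line C and +3 in line B. With 5' ends at +4 it was +10 in line C and +6 in line B, and at +8 it was +12 in line C and +6 in line B. From +5 to +17 the median end was a 5' overhang in line C and a 3' overhang in line B at each 5' end. Beyond +17 the window itself bars most 5' overhangs. Taking 3' ends anywhere in the tables left the order the same at all 18 positions, with gaps of 2 to 8 nt. Reads at a given 5' end come from few structures, and the positions are not replicates.

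**Figure D4:**
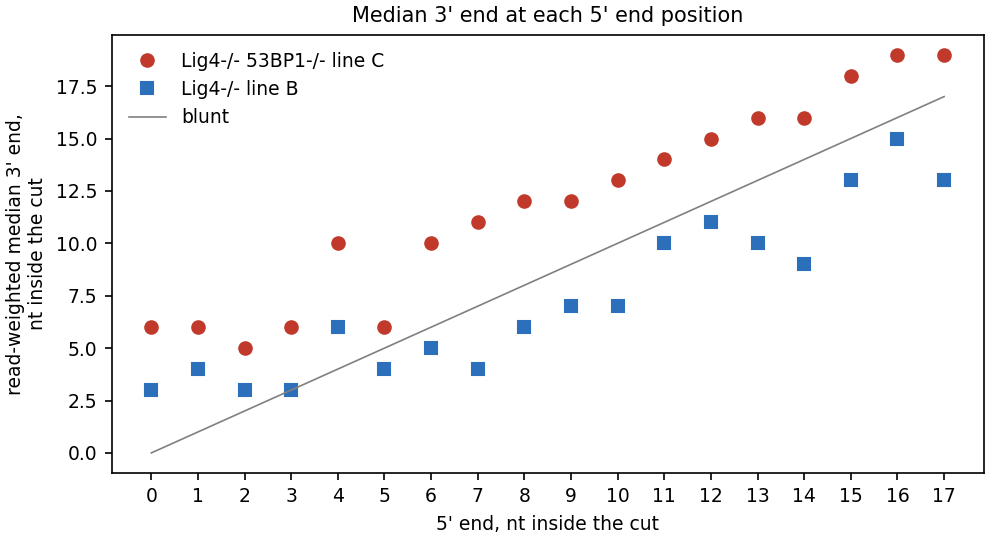
Points give the read-weighted median 3' end at each 5' end position, both in nt inside the cut, for LigaseIV -/- 53BP1 -/- line C (red circles) and Ligase IV -/- line B (blue squares), and the line marks blunt ends. Line C lies above line B at all 18 positions, by 2 to 7 nt, and above the blunt line throughout.

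The end as FokI is known to leave it, with its 5' end at 0 and its 3' end at +4, had 29134 reads in line B, which is 5.74% of near-cut reads (5.68 to 5.80) and rank 3 among its near-cut structures. It was not listed in line C. The table of line C did list the neighbouring structures with the same 5' end, namely the 5-nt 5' overhang with 1324 reads and the 3-nt 5' overhang with 670 reads. The lowest count listed was 2 reads in the line C table and 1 read in the line B table. An end that is not listed has no value in the file, and why this one was not listed was not tested.

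Shorter forms of that end were measured in both tables. With the 5' end kept at 0, the 3-nt 5' overhang held 0.652% of near-cut reads in line C and 3.78% in line B. The 2-nt 5' overhang held 0.204% in line C and 5.26% in line B. The 1-nt 5' overhang held 0.0185% in line C and 0.991% in line B, and the blunt end at 0 was listed in neither. With the 3' end kept at +4 and the 5' end trimmed, the 3-nt 5' overhang held 0.364% in line C and 2.76% in line B, and the 2-nt 5' overhang 0.300% in line C and 1.48% in line B. Ends with both strands between 0 and +4 held 1.89% of near-cut reads in line C (1.81 to 1.97) and 34.5% in line B (34.3 to 34.6). Blunt ends and 3' overhangs are counted among them. The line B share includes the end as FokI is known to leave it, at 5.74%, which has no value in line C.

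Longer forms went the other way. Ends with the 5' end at 0 and the 3' end beyond +4 held 6.97% of near-cut reads in line C and 0.593% in line B. Most of the line C share came from ends that line B did not list, which therefore have no value there. These ran from 0 to +6 (3.89% in line C), +8 (1.30%) and +10 (0.0817%). Line B alone listed the end from 0 to +12, with 8 reads. More broadly, ends whose 5' end lay between 0 and +4 and whose 3' end lay beyond +4 held 46.4% in line C and 22.0% in line B. Ends with both strands beyond +4 held 50.5% in line C and 30.9% in line B. The reverse form, with the 5' end beyond +4 and the 3' end from 0 to +4, held 0.262% in line C and 5.54% in line B.

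Overhangs of 4 nt on the 5' strand also occurred away from the cut. Such ends held 15.7% of near-cut reads in line C, over 12 structures, and 5.71% in line B, over 17 structures. Line C listed none of them with the 5' end at +1 or +2, where line B had 4055 and 1881 reads. In line C the leading one had its 5' end at +6, with 4.17% of near-cut reads against 0.349% in line B. In line B the leading one had its 5' end at +4, with 3.39% of near-cut reads, against 2.19% in line C.

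The lists of the 10 most abundant near-cut structures differed, though the overlap depends on where the lists end. Of the 10 leading structures of each table, 1 was in both lists, which is 10% of each list: the 2-nt 5' overhang with its 5' end at +3, at 5.38% in line C and 5.66% in line B. From the line B list, the 2-nt 5' overhang from +4 to +6 (rank 2) had rank 11 in line C. The 4-nt 5' overhang from +4 to +8 (rank 8) had rank 13 there. The end from 0 to +4 was not listed in line C, and the rest of the line B list had ranks 39 to 130 there. The overlap of such lists over all structures was not computed. In the line C list, 9 of 10 had their 3' end at +6 or further inside, against 2 of 10 in the line B list.

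In line C the list was led by a 3-nt 5' overhang from +3 to +6, with 6405 reads and 6.23% of near-cut reads, against 3637 reads and 0.716% in line B. Among structures listed in both tables it was also the largest gain in share, 5.51 points. The next gains among these were the 4-nt 5' overhang from +6 to +10, at 4.17% in line C and 0.349% in line B, and a 5-nt 5' overhang from +1 to +6, at 3.36% in line C and 0.0879% in line B. Line B did not list the 6-nt 5' overhang from +4 to +10, with 6006 reads and 5.84% in line C, or the one from 0 to +6, with 4004 reads and 3.89% in line C.

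The line C list held 4 other long 5' overhangs. From +4, the 5-nt overhang held 3.17% in line C and 0.150% in line B, the 7-nt overhang 2.68% in line C and 0.131% in line B, and the 9-nt overhang 3.00% in line C and 0.361% in line B. From +8, a 5-nt overhang held 2.68% in line C and 0.0164% in line B.

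In line B the most abundant near-cut structure was a 2-nt 5' overhang whose 5' end lay 1 nt outside the cut and whose 3' end lay at +1. It had 100 reads and 0.0972% of near-cut reads in line C, against 35287 reads and 6.95% in line B, the largest loss in share among structures listed in both tables at -6.85 points. The next losses among these were the 2-nt 5' overhang from 0 to +2, at 0.204% in line C and 5.26% in line B, and the blunt end at +3, at 0.176% in line C and 4.80% in line B. A second blunt end, at +2, held 0.0428% in line C and 2.78% in line B. The 2-nt 5' overhang from +4 to +6 was abundant in both, at 2.54% in line C and 6.04% in line B.

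Ends reaching outside the cut held a smaller share in line C than in line B, through 1 structure. Structures with either strand outside position 0 held 0.977% of near-cut reads in line C (0.918 to 1.04) and 7.06% in line B (6.99 to 7.13). Of these, the 2-nt 5' overhang from -1 to +1 held 0.0972% in line C and 6.95% in line B. Without that structure the line B share was the smaller one. No near-cut structure in either table had both strands outside position 0.

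Structures listed in both tables were also compared one by one through the ratio of their shares of all reads, line C over line B. Across all 679 such structures, 34.6% were 2-fold or more lower and 48.7% were 2-fold or more higher in line C. Of the 193 near-cut structures, 128 were lower by that measure and 43 were higher, with a median ratio of 0.187 against 1.78 over all structures. The near-cut share of all reads, 18.5% in line C and 81.4% in line B, enters each of these ratios. As shares of near-cut reads, 44.6% of the 193 were 2-fold or more lower and 34.7% were 2-fold or more higher in line C. Of the 83 near-cut 5' overhangs, 10 were lower and 58 were higher in line C, with a median ratio of 8.31. Of the 97 near-cut 3' overhangs, 71 were lower and 6 were higher, with a median ratio of 0.0784. Of the 35 structures with their 3' end at +4 or before it, 27 were lower and 2 were higher. Of the 158 with their 3' end beyond +4, 59 were lower and 65 were higher, with a median ratio of 1.18. The cut was placed with the line B table, which could set the direction of this split. Counts for 5' and 3' overhangs over all structures were not made. These are counts in 1 pair of tables and carry no test.

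Near-cut ends were set against the remaining ends of their own table, which lay further inside or had 1 strand outside the window. In line C, 5' overhangs held 89.8% of near-cut reads and 70.0% of the 453195 other reads, and in line B 56.5% of near-cut reads and 27.6% of the 115729 other reads. The gaps were 19.8 points in line C and 28.9 points in line B. Because the window was centred on a 5' overhang of line B, they are given without a test. They turned to -4.93 points in line C and -5.14 points in line B when each structure was counted once, and without the 10 most abundant structures the line B gap was 4.48 points. The 4-nt 5' overhang held 15.7% of near-cut reads and 8.56% of other reads in line C, against 11.4% of near-cut reads and 0.866% of other reads in line B. Overhangs of 5 nt or more held 36.4% near the cut and 38.9% far from it in line C, a difference of -2.47 points. In line B they held 7.56% near the cut and 41.02% far from it.

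Line B was also cut with Cas9 and the Eb guide RNA. Cas9 is a nuclease whose known product is a blunt or nearly blunt end. The ZFN target was not analysed here, so nuclease and target site cannot be told apart. Within 20 nt of the Cas9 cut, taken as position 37, line B had 481609 reads. Near the ZFN cut 56.5% of line B reads were 5' overhangs, against 15.4% near the Cas9 cut, a difference of 41.2 points, given without a test for the same reason. Without the 10 most abundant structures of each it was 18.2 points. Blunt ends held 10.6% near the ZFN cut and 46.5% near the Cas9 cut in line B, and 3' overhangs 32.8% near the ZFN cut and 38.1% near the Cas9 cut. In line A, measured only with Cas9 of these nucleases, 5' overhangs held 27.5% and blunt ends 50.9% near the cut, which shows the spread between lines. The gap in 3' overhangs between nucleases, -5.26 points, was smaller than the 16.5 points between the Cas9 lines, and that in overhangs of 5 nt or more was -2.20 points.

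**Figure D5:**
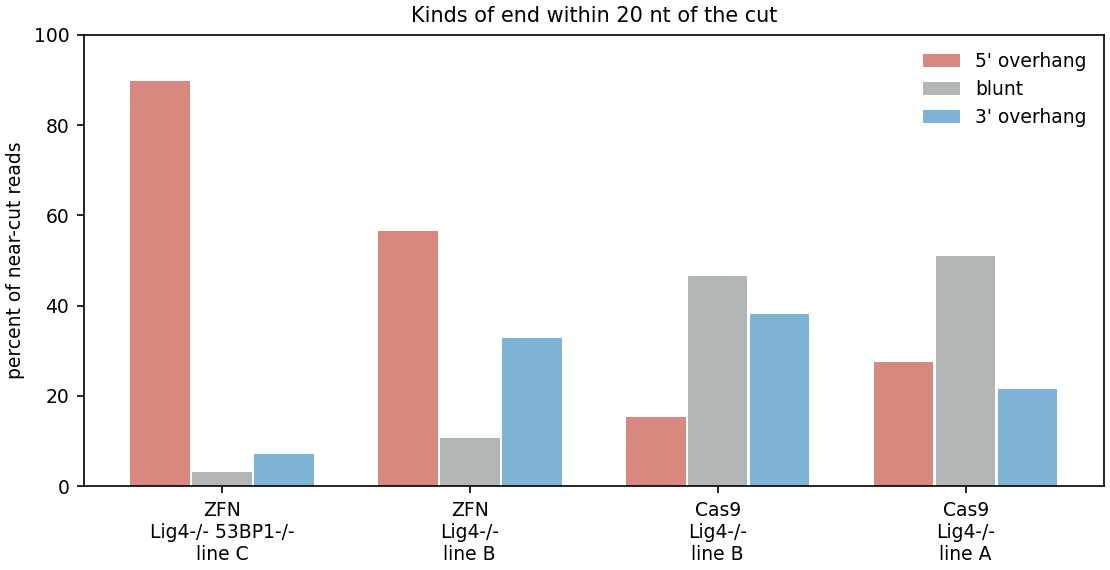
Bars give the percent of reads from 5' overhangs, blunt ends and 3' overhangs among ends within 20 nt of the cut, for the ZFN in LigaseIV -/- 53BP1 -/- line C and Ligase IV -/- line B, and for Cas9 in LigaseIV -/- lines B and A. The 5' overhang share is 89.8% and 56.5% at the ZFN cut and 15.4% and 27.5% at the Cas9 cut.

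At the RAG breaks, ends with both strands within 20 nt of the break had higher 5' overhang shares in the lines without 53BP1. For 53BP1-deficient line B at the substrate the difference was within the spread between lines. At the recombination substrate 5' overhangs held 34.3% of 3511 such reads in 53BP1-deficient line C and 24.3% in 53BP1-deficient line B. In Ligase IV -/- lines A and B they held 14.5% and 21.1%. The 24.3% and the 21.1% lay closer together than the lines of either genotype at that break. Those differed by 10.01 points (53BP1-deficient) and 6.68 points (Ligase IV -/-). The line C value came from 22 structures, against 121 and 113 in Ligase IV -/- lines A and B, and from another sequencing run. At Jk1, 5' overhangs held 24.3% in 53BP1-deficient line B, the only such line measured there. Ligase IV -/- lines A and B had 13.7% and 15.5%. Lines that lack H2AX, another chromatin component of the damage response, held 30.2% and 26.2% at the substrate and 25.7% and 31.2% at Jk1, so a share above the Ligase IV -/- lines was seen with either loss. None of these RAG tables took part in choosing the ZFN ends, and whether the change differs between break types was not tested.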

How the data were processed

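The deposited tables hold, per the file headers, a position, an overhang and a read count for each end structure. The authors' counts are not normalised and pool the libraries of a group. No label or header used here names an aligner, a read filter or a genome build. The other deposited columns, position and overhang, are whole numbers read as nt, and subtracting the overhang from the position gave the place of the 3' end. Tables were assigned to groups from the labels, and 2 tables that repeat others were left out.

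Calculations used scipy 1.17.1 and numpy 2.4.6 for tests, pandas 2.3.3 for tables and matplotlib 3.10.9 for figures, under Python 3.11.15. Structures with fewer than 2 reads were left out. Read shares have exact Clopper-Pearson 95% intervals and were compared by two-sided Fisher's exact tests at a threshold of 0.05, adjusted by Benjamini-Hochberg over 7 classes. Tests were also run on shares that the placing of the cut could set, some of them among the 7 classes. Their results are not reported, and these shares are described only. The arithmetic was tested on simulated data. Named structures were the 10 most abundant in each table, the shorter forms of the FokI-type end, and the 3 largest gains and losses in share, and further ones were chosen after their values were seen. The ends, classes and position of the cut were chosen with earlier results of these data known. Alternatives changed the read minimum, the window, the cut, the weight of a structure and the definition of blunt.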

Additional observations from a re-analysis of the deposited data

Results flagged for a closer look

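The share of blunt ends near the break was lower in the 53BP1-deficient line than in the Ligase IV -/- line at the ZFN break. At the RAG breaks it was higher in the 53BP1-deficient lines. At the ZFN it was 3.05% in 53BP1-deficient line C and 10.6% in Ligase IV -/- line B, a difference of -7.58 points. At the recombination substrate it was 52.2% in 53BP1-deficient line B and 37.7% in line C, against 19.9% and 22.7% in Ligase IV -/- lines A and B, a difference of means of 23.6 points. At Jk1 it was 40.5% in 53BP1-deficient line B, against 25.9% and 23.1% in Ligase IV -/- lines A and B, a difference of 16 points. At the RAG breaks each 53BP1-deficient line lay above both Ligase IV -/- lines. The line C value at the substrate came from 2 blunt structures in a total of 3511 reads, and from another sequencing run. Blunt ends in the H2AX-deficient lines held 33.8% and 31.8% at Jk1 and 25.1% and 18.2% at the substrate. The ZFN break has 1 line per genotype, so genotype, cell line, run and ZF number cannot be told apart there. The 53BP1-deficient lines at the substrate differed by 14.5 points among themselves, more than the ZFN difference. The ZFN difference was -0.655 points without the 10 most abundant structures and 0.942 points with each structure counted once. The difference between break types was not tested.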

How the results depend on the processing

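The difference of line C from line B in the share of 3' overhangs kept its direction in all 10 alternatives, from -50.1 to -11.5 points. That in 3' ends inside the cut ran from 13.03 to 54.26 points. The difference in 5' overhangs between ZFN and Cas9 in line B ran from 11.3 to 48.6 points. The cut was placed with the line B table, which could set the direction of the latter 2. Their ranges are therefore descriptions and not support. Counting each structure once changed the most. The 5' overhang difference was then 10.6 points (33.2 by reads) and that of 5' ends inside the cut 0.733 points (14.6 by reads). Structures are not replicates, so no test is given for these counts. Blunt ends (0.942), 4-nt 5' overhangs (-1.39), overhangs of 5 nt or more (-5.55) and the gap of near from far 5' overhangs (-4.93 in line C, -5.14 in line B) reversed in sign. With the 10 leading structures removed from each table, the difference in 5' ends inside the cut was -5.14 points, that in long overhangs 5.51 (28.9 with them), that in blunt ends -0.655 (-7.58 with them) and the near-far gap of line B 4.48 (28.9 with them), and in a window of 10 nt that in 4-nt 5' overhangs was -1.59 points; the cause was not tested.

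The near-cut share of all reads differed by -62.9 points, and by -63.2 with 10 reads or more, -8.74 with structures counted once, -62.8 and -57.9 without the most abundant or the 10 most abundant structures, -54.9 and -67.5 in windows of 10 and 30 nt, -65.4 with the cut at 37, -62.5 with only the 5' end in the window and -63.9 over structures listed in both tables, an alternative chosen after seeing the data. Over those structures long overhangs held 26.8% in line C and 7.68% in line B. The 128 structures called lower in line C became 76 with 10 reads or more and 57 in a window of 10 nt. The 43 called higher became 26 without the 10 most abundant, 10 in a window of 10 nt, 25 at a 4-fold ratio and 67 as shares of near-cut reads. These ratios already rest on structures listed in both tables and use neither a weight nor a definition of blunt, so those alternatives were not run for them.

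No paired analysis was possible because each table pools its libraries, and for the same reason leaving out a library was not run. At these read totals the intervals are narrow, and they say nothing of the spread between lines.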

Other observations

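Both ZFN tables listed few structures at the same 5' end positions. At 6 of the 21 positions from 0 to +20 (+1, +5, +7, +12, +16 and +20), line C listed 2 to 5 structures and line B 3 to 6, against 9 to 15 in line C and 9 to 19 in line B at the other 15. Those 6 positions held 11.6% of near-cut reads in line C and 10.998% in line B. The 3' ends from +1 to +20 had 6 to 15 structures per position in line C and 5 to 18 in line B. The positions were picked after their counts were seen, and the sequence at the break was not analysed here.

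Some abundant structures were listed in 1 table only, though listing in both was more common near the cut (193 of 296) than over all structures (679 of 2139). The 30 near-cut structures listed only in line C held 14.3% of its near-cut reads, and the 73 listed only in line B held 7.73%. Their median was 97 reads in line C and 5 in line B, against 116 and 297 over all near-cut structures of each line. The largest of these were the 6-nt 5' overhang from +4 to +10 in line C, with 6006 reads, and the FokI-type end in line B, with 29134 reads. For both, the other table listed structures with the same 5' end and a 3' end 1 nt to either side.

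The table of line B also held 617 structures with 1 read, 43 of them near the cut, which were left out. The table of line C listed none with 1 read.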
